A study of Rattus norvegicus with 16 samples.

Results

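The genes Gsta1, Prdx6, Fth1 and Selenow encode proteins that handle peroxides, reactive compounds, iron and selenium in muscle. Members were taken as the probes whose platform gene symbol was one of these names (Selenow was formerly Sepw1), which gave 4 probes, 1 for each gene, of the 1176 tested probes, or 4 of the 1096 genes named by a probe. The tissue was the EDL (extensor digitorum longus), a hind limb muscle made mostly of fast fibres. All rats were Brown-Norway and 6 months old: 8 arrays held EDL denervated for 2 months and 8 held control EDL, which the study's title calls innervated, with rats 1 to 8 in each group. How the nerve was interrupted, the sex of the rats, whether RNA was pooled and whether equal numbers mean 1 animal with both muscles are not stated in the labels. Each array was counted as 1 sample. The limma p-values rest on the spread between arrays, with each probe's variance drawn toward that of probes of similar level. The exact permutation p-values use the values of each probe alone.

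Labelled cDNA was hybridised to Rat Atlas 1.2 Array II membranes, which carry a fixed panel of genes. The deposited values behave as logarithms of signal, and no source names the base of the logarithm. A difference is always denervated minus control and is given in log units, never as a fold change. The level of a probe is compared between arrays and not with the level of another probe, since probes bind with different strength. Such probes can also bind transcripts of close relatives, so signal named Gsta1 may include other alpha-class glutathione transferases. Whole muscle was measured, so a change in a cell type's number and a change in its RNA per cell cannot be told apart.

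Glutathione transferases join glutathione to electrophilic compounds, including products of lipid peroxidation, and Gsta1 belongs to their alpha class. Prdx6 is a peroxiredoxin that reduces hydrogen peroxide and phospholipid peroxides and also has phospholipase activity. Fth1 is the heavy chain of ferritin, which oxidises iron and stores it inside the ferritin shell, and its translation is held back by iron regulatory proteins when iron is scarce. Selenow is a small selenoprotein that is abundant in skeletal muscle, and its selenocysteine is inserted at a UGA codon with the help of an element in its mRNA.

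The mean over all probes lay between 8.19 and 8.31 log units on 15 of 16 arrays and was 6.63 on that of control rat 6. Over all 1176 probes the median difference was 0.22, and 0.03 without control rat 6. After each array was centred on its median this median difference was 0.01. Rats 1 to 4 and rats 5 to 8 are given apart where they differed, although the labels name no batch. Among denervated arrays the number of probes at the array's lowest value was 95 to 139 in rats 1 to 4 and 22 to 61 in rats 5 to 8, and among control arrays it was 82 to 206 in rats 1 to 4 and 92 to 135 in rats 5 to 8. The part of this in the results by set was not tested. Among fibre markers, Ckm, the muscle creatine kinase, ranged from 12.78 to 14.94 on denervated arrays and from 11.09 to 16.95 on control arrays, and none of 48 values of the 3 measured fibre markers was at the lowest value of its array. None of the listed blood and erythroid markers was among the tested probes.

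The promoters of Gsta1 and Selenow are shown because RefSeq's promoter table (GRCr8) held only these 2 of the 4 members. They are also the members that passed the test. The capitals mark motifs searched on both strands. The letters searched were TGACNNNGC for the core of the antioxidant response element and TATAAA for the TATA box. For the metal response element the broad pattern TGCNCNC was used, which allows any base at each N. No hit overlapped a hit of another of these motifs. In the 250 bases before its start, on the minus strand at chr9:31216533-31216782, Gsta1 held a TATAAA on the opposite strand, at position -176 from the start.
Gsta1 upstream: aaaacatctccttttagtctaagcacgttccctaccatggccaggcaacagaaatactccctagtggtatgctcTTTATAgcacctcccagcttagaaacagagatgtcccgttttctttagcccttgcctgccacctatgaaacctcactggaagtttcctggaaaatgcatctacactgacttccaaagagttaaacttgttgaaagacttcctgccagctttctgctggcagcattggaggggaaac
Gsta1 stretch with the antioxidant response element core: aactcaggcaTGACTTTGCatttttcttct
The stretch lies at chr9:31216483-31216512 on the minus strand, and its motif begins at base 31 after the start. Selenow held a TATAAA at position -140 and a match of the broad pattern TGCNCNC, read TGCTCCC, at position -50. Both lie in the window at chr1:85732704-85732953 on the minus strand.
Selenow upstream: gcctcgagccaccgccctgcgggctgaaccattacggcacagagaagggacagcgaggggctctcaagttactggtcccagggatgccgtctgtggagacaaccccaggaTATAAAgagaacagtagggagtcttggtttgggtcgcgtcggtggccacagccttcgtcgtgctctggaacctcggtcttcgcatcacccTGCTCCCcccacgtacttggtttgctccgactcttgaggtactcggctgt
Selenow stretch with the metal response element: tactcggctgTGCGCACggccccacgcgca
The TGCNCNC match in this stretch crosses the start of Selenow, at chr1:85732685-85732714 on the minus strand. It overlaps a match of the same pattern on the opposite strand. In all 33469 promoters of the table, over 300 bases each, 12.1% held the antioxidant response element core, 49.6% the TGCNCNC letters and 14.2% the TATAAA letters. Selenow held none of the first and Gsta1 none of the second in these windows. A match describes letters only, and no binding was measured.

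Gsta1 was higher in denervated muscle. Its values ran from 9.28 through a median of 9.80 to 10.64 on denervated arrays, and from 7.11 through a median of 8.49 to 9.38 on control arrays. All 8 denervated arrays lay above the control median and 7 of 8 lay above every control array, with denervated rat 2 the exception. The mean was 9.89 ± 0.43 in denervated muscle and 8.47 ± 0.74 in control muscle (SD, n = 8 each). Gsta1 rose by 1.42 (SE 0.36, 95% interval 0.70 to 2.15, adjusted p = 0.00971 in limma), and its exact two-sided permutation p over 12870 splits was 0.000311 (adjusted p = 0.0183), where 5.7% of all probes passed by permutation. The groups did overlap, as they did for each of the 4 genes, and they were fully apart for 1.28% of all probes. Higher calls made up 5.44% of all probes, and Gsta1 ranked 47 of 1176 by the size of its rise. Centring left a rise of 1.21 (adjusted p = 0.0152), quantile normalisation one of 1.12 (adjusted p = 0.0105) and leaving out control rat 6 one of 1.23 (adjusted p = 0.00926). Among rats 1 to 4 the difference was 1.19 (adjusted p = 0.143) and among rats 5 to 8 it was 1.66 (adjusted p = 0.0112). The difference between those sets was 0.47 and did not pass (adjusted p = 0.758).

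**Figure D1:**
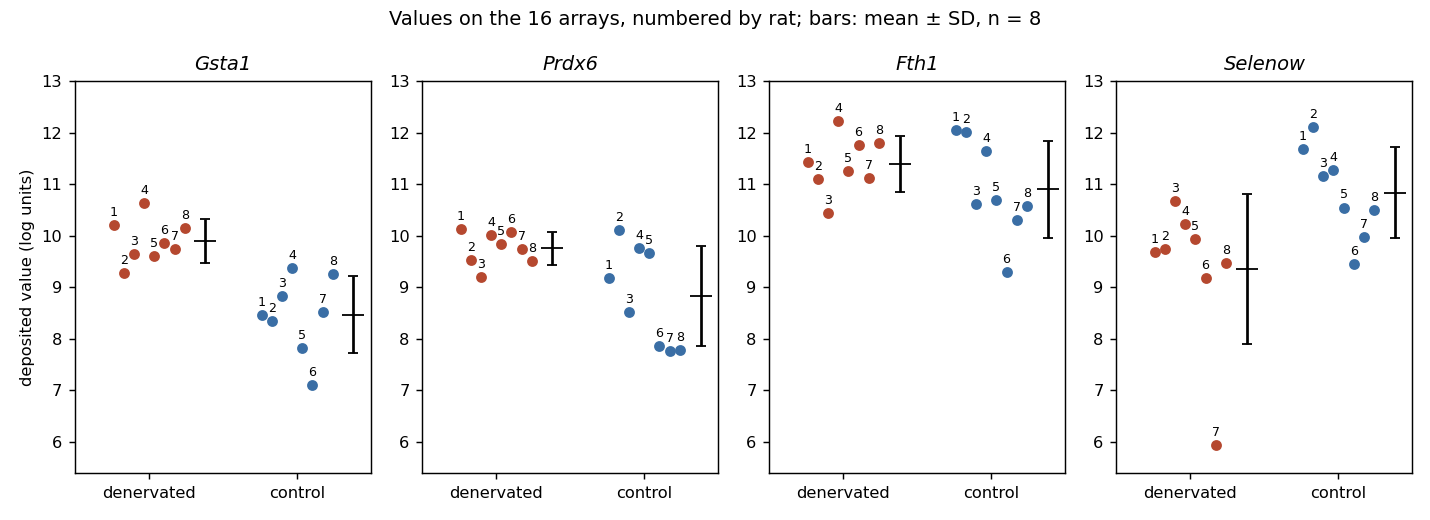
Deposited values in log units (vertical axis) of Gsta1, Prdx6, Fth1 and Selenow on 8 denervated and 8 control arrays; each point is 1 array with its rat number and bars are mean ± SD. Gsta1 lies higher in denervated muscle, Selenow lies lower with denervated rat 7 at 5.94, and the groups of Prdx6 and Fth1 overlap.

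Prdx6 did not pass the test. Its values ran from 9.20 through a median of 9.79 to 10.14 on denervated arrays, and from 7.77 through a median of 8.85 to 10.11 on control arrays. All 8 denervated arrays lay above the control median, but only that of rat 1 lay above every control array. The mean was 9.75 ± 0.33 in denervated muscle and 8.83 ± 0.97 in control muscle (SD, n = 8 each), a difference of 0.92 (SE 0.37, 95% interval 0.17 to 1.67, adjusted p = 0.139 in limma; exact permutation p = 0.0286, adjusted p = 0.196). An unadjusted p under 0.05 was reached by 17.9% of all probes, Prdx6 among them. The lowest control arrays were those of rats 6, 7 and 8 at 7.86, 7.77 and 7.78, with the others from 8.52 to 10.11. Relative to its array's median, control rat 6 was at 0.87 and within the other control arrays, and only control rats 7 and 8 were below 0, at -0.75 and -0.45. Over all arrays the difference was 0.72 with each array centred (adjusted p = 0.269) and 0.61 with quantiles made equal (adjusted p = 0.318). Among rats 1 to 4 the difference was 0.32 (adjusted p = 0.818). Among rats 5 to 8 it was 1.53 (adjusted p = 0.0205), 1.39 without control rat 6 (adjusted p = 0.0236), 1.54 without denervated rat 7 (adjusted p = 0.0557) and 1.03 after centring (adjusted p = 0.0971).

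Fth1 did not pass either, and its direction depended on the scaling. Its values ran from 10.45 through a median of 11.35 to 12.22 on denervated arrays, and from 9.30 through a median of 10.66 to 12.05 on control arrays. Of the 8 denervated arrays 7 lay above the control median, but only 1 lay above every control array. The mean was 11.39 ± 0.54 in denervated muscle and 10.90 ± 0.95 in control muscle (SD, n = 8 each), a difference of 0.49 (SE 0.41, 95% interval -0.33 to 1.31, adjusted p = 0.549 in limma). Centring gave 0.28 (adjusted p = 0.744), leaving out control rat 6 gave 0.26 (adjusted p = 0.746) and quantile normalisation gave -0.48 (adjusted p = 0.159).

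The sign for Fth1 also turned between sets of rats. Among rats 1 to 4 Fth1 averaged 11.30 ± 0.74 in denervated muscle and 11.58 ± 0.67 in control muscle (SD, n = 4 each). Among rats 5 to 8 it averaged 11.48 ± 0.34 in denervated muscle and 10.22 ± 0.64 in control muscle (SD, n = 4 each). The difference was thus -0.28 in rats 1 to 4 (adjusted p = 0.856 in limma) and 1.26 in rats 5 to 8 (adjusted p = 0.0185 in limma), or 0.76 there after centring (adjusted p = 0.0938). The difference between the sets was 1.54 and did not pass (adjusted p = 0.230 in limma). This interaction had an unadjusted p under 0.05 for 13.5% of all probes, Fth1 among them, and no probe passed after adjustment (0%). The control means of the sets lay further apart than the SD within either set, and the denervated means did not.

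Selenow was lower in denervated muscle, and 1 array stood far below the others. Its values ran from 5.94 through a median of 9.71 to 10.67 on denervated arrays, and from 9.45 through a median of 10.85 to 12.10 on control arrays. All 8 denervated arrays lay below the control median, although only those of rats 6 and 7 lay below every control array. Denervated rat 7 gave 5.94 and the next lowest denervated array, that of rat 6, gave 9.17. The mean was 9.36 ± 1.45 in denervated muscle and 10.84 ± 0.88 in control muscle (SD, n = 8 each). Selenow fell by 1.48 (SE 0.45, 95% interval -2.38 to -0.58, adjusted p = 0.0318 in limma), 1 of 10 lower calls, which were 0.85% of all probes. The SE and interval use a variance drawn toward that of probes of similar level. Both are narrower than the SDs above alone would give. Relative to the array as a whole, Selenow fell by 1.69 with each array centred (adjusted p = 0.0405), and by 2.16 with quantiles made equal (adjusted p = 0.00105).

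The call for Selenow was less firm than its direction. Its exact two-sided permutation p was 0.0106 (adjusted p = 0.108). Without denervated rat 7 the difference was -0.99 (adjusted p = 0.136), and the call was also lost without denervated rat 6 (adjusted p = 0.0576) or without control rat 1, 2, 3 or 5 (adjusted p = 0.0666, 0.0609, 0.0571 and 0.0503). The sets of rats were fitted apart. Among rats 1 to 4, which do not include that low array, Selenow averaged 10.08 ± 0.46 in denervated muscle and 11.56 ± 0.43 in control muscle (SD, n = 4 each), a difference of -1.48 (adjusted p = 0.0173 in limma). Among rats 5 to 8 it averaged 8.63 ± 1.82 in denervated muscle and 10.12 ± 0.51 in control muscle (SD, n = 4 each), a difference of -1.49 (adjusted p = 0.0420 in limma). Without denervated rat 7 that last difference was -0.59 (adjusted p = 0.489), and without control rat 6 it was -1.71 (adjusted p = 0.0873). The size and the call in rats 5 to 8 thus rested on single arrays. The limma variance was also drawn toward that of probes of similar level, so that call did not rest on the SD of 1.82 alone.

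**Figure D2:**
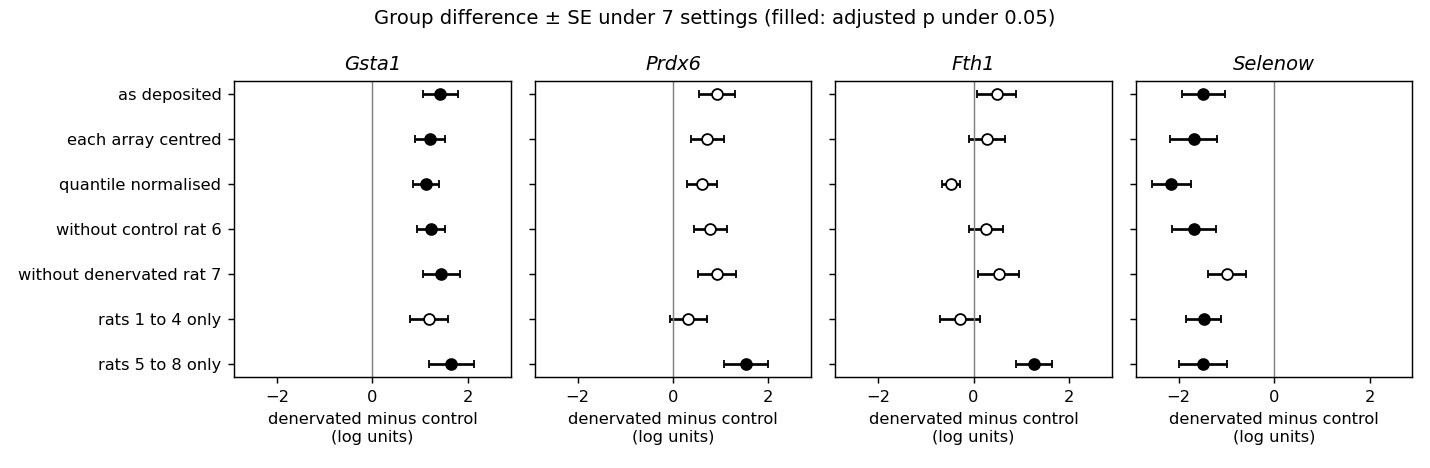
Difference between denervated and control muscle in log units ± SE (horizontal axis) for each of the 4 genes under 7 settings (rows); filled points have an adjusted p under 0.05. Gsta1 stays above 0 and Selenow below 0 in all 7, while Fth1 is negative after quantile normalisation and among rats 1 to 4.

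All 64 values of the 4 genes lay above the lowest value of their array, by at least 1.58 log units. Denervated arrays varied less than control arrays for Gsta1, Prdx6 and Fth1, and more for Selenow, where rat 7 stood apart. With each array centred, the SD of Gsta1 was 0.55 in denervated and 0.54 in control muscle, that of Prdx6 0.39 and 0.93, that of Fth1 0.59 and 0.80, and that of Selenow 1.62 and 0.81, so Gsta1 no longer varied less in denervated muscle.

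A difference between genes on the same array is not moved by a shift of the whole array, although quantile normalisation or another change of scale can move it, and it shows only that the genes changed unequally. Gsta1 minus Selenow ran from -1.03 to 3.80 on denervated arrays and from -3.76 to -1.23 on control arrays. The groups did not overlap, which held for 11.5% of the 1175 other probes when set against Selenow. Gsta1 had been called higher and Selenow lower in these same data, so this non-overlap is not separate support for either call. The lowest denervated array was that of rat 3, the highest that of rat 7. Prdx6 minus Selenow averaged 0.40 ± 1.53 in denervated muscle and -2.01 ± 0.64 in control muscle (SD, n = 8 each), and 7 of 8 denervated arrays lay above every control array. Fth1 minus Selenow averaged 2.03 ± 1.53 in denervated muscle and 0.06 ± 0.32 in control muscle (SD, n = 8 each), again with 7 of 8 above every control array. In both of these pairs the exception was denervated rat 3, the array with the highest Selenow among denervated arrays. No share over all probes is given for these counts of 7 of 8, so they are not set against a background.

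The tightest of these contrasts was between selenoproteins, and it was picked after its values were seen. Selenop, the plasma selenoprotein that carries selenium to tissues, had values from 10.87 through a median of 11.49 to 12.38 on denervated arrays, and from 8.84 through a median of 10.52 to 11.80 on control arrays. Its difference of 1.06 (SE 0.41) did not pass (adjusted p = 0.116 in limma), and after quantile normalisation it was 0.25 (adjusted p = 0.534). Selenop was called with the set of rats as a term (adjusted p = 0.0165) and in rats 5 to 8, where it differed by 1.57 (adjusted p = 0.00205), against 0.55 in rats 1 to 4 (adjusted p = 0.634). Selenop minus Selenow was 0.54 to 4.92 on denervated arrays and -0.69 to -0.06 on control arrays. The control arrays lay within a narrow band (SD 0.20, n = 8), although Selenop itself had a control SD of 1.01. Such non-overlap was common around Selenow: 11.5% of the 1175 other probes gave groups that did not overlap when set against it, where the same share was 3.49% for Gsta1, 0.766% for Prdx6 and 1.02% for Fth1.

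**Figure D3:**
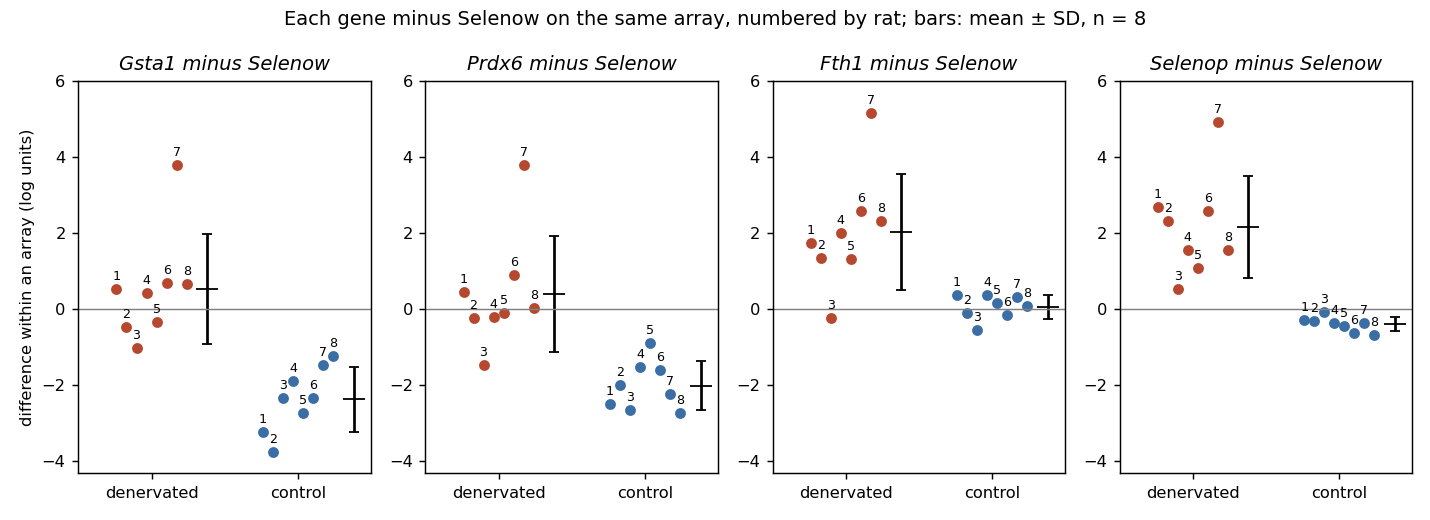
Difference between a gene and Selenow on the same array in log units (vertical axis), for Gsta1, Prdx6, Fth1 and Selenop; points are arrays with rat numbers, at left denervated and at right control, and bars are mean ± SD. Gsta1 minus Selenow and Selenop minus Selenow separate all denervated from all control arrays, as 11.5% of the 1175 other probes did when set against Selenow.

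Of 23 measured genes on lists of antioxidant, iron, copper, selenium and detoxification genes, Gsta1 rose and Selenow fell, and no other passed (2 of 23, where 6.29% of all probes were called). An unadjusted p under 0.05 was reached by 5 of the 23, the other three being Prdx6, Selenop and Ephx1, where 17.9% of all probes reached it. Of the 23 differences 16 were positive, where 63.7% of all probes were, so both counts lay near the background. The 23 had a median of 0.30 against 0.22 over all probes, and of 0.09 against 0.01 after centring. In rats 5 to 8 alone 6 of the 23 rose and 1 fell, where 11.8% of all probes were called. In rats 1 to 4 alone none rose and 1 fell, Selenow, where 2.55% were called. Without denervated rat 7, 3 of the 23 passed in rats 5 to 8. The rises in rats 5 to 8 were those of Gsta1, Prdx6, Fth1, Gstm7, Prdx1 and Selenop, and after centring those of Gsta1 and Selenop still passed. The share of all probes called without denervated rat 7 or after centring in rats 5 to 8 is not given here. Those counts are therefore not set against a background.

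Among enzymes that use glutathione, Gstm7, a mu-class transferase, averaged 10.02 ± 0.31 in denervated muscle and 9.40 ± 0.72 in control muscle (SD, n = 8 each), a difference of 0.62 (adjusted p = 0.340 in limma). The difference of Gstm7 was 0.20 after quantile normalisation (adjusted p = 0.716), 0.026 in rats 1 to 4 (adjusted p = 0.983) and 1.22 in rats 5 to 8 (adjusted p = 0.0332). Oplah, which returns oxoproline to glutamate in glutathione turnover, differed by -0.37 (adjusted p = 0.787). Among peroxide and superoxide genes, Prdx1, a cytosolic peroxiredoxin, differed by 0.29 (adjusted p = 0.728), and by -0.62 in rats 1 to 4 and 1.20 in rats 5 to 8. Cyba, a membrane subunit of NADPH oxidases that make superoxide, differed by -0.30 (adjusted p = 0.734).

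Of 7 iron and haem genes none passed. Hp, the haptoglobin that binds free haemoglobin, differed by 0.88 (adjusted p = 0.279), with 7 of 8 denervated arrays above the control median. Alas1, the first enzyme of haem synthesis, differed by -0.56 (adjusted p = 0.549), and by -1.66 in rats 1 to 4 and 0.53 in rats 5 to 8. Ireb2, an iron regulatory protein that binds ferritin mRNA, differed by -0.03 (adjusted p = 0.990), and 3 of 8 denervated and 3 of 8 control values were at the lowest value of their array, where only an upper bound is known. The iron importer Slc11a2 (0.24), and Alad (0.33) and Urod (0.38), enzymes of haem synthesis, also did not pass, with adjusted p from 0.685 to 0.850. These 3 genes and Ireb2 are named to complete the list and were chosen after their values were seen. For Atp7a, a copper transporter, the difference was 1.07 (adjusted p = 0.315), but 0.58 when control rat 6 was set aside (adjusted p = 0.571) and 0.044 in rats 5 to 8 without it.

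Of 4 selenoprotein genes 1 fell, Selenow, and none rose, where 0.85% of all probes were called lower and 5.44% higher. That call was lost by exact permutation and without denervated rat 7, as given above. Besides Selenow and Selenop, the deiodinases, selenoenzymes that activate or inactivate thyroid hormone, did not pass. Dio2, the activating form, differed by -0.43 (adjusted p = 0.729), and Dio3, the inactivating form, which was named after its value was seen, by 0.30 (adjusted p = 0.850). Of the 5 phase 2 and NRF2 genes, Ephx1, an epoxide hydrolase, averaged 8.69 ± 0.51 in denervated muscle and 7.53 ± 1.08 in control muscle (SD, n = 8 each), a difference of 1.16 (adjusted p = 0.117 in limma). Cbr1, a carbonyl reductase, differed by 0.96 (adjusted p = 0.340) and was at the lowest value of the array on 4 of 8 control arrays. Akr1b1, an aldose reductase, differed by 0.19 (adjusted p = 0.862). Nfe2l2, which encodes the transcription factor NRF2 itself, differed by 0.11 (adjusted p = 0.940) and Tkt, a transketolase, by -0.15 (adjusted p = 0.931), and both genes were named after their values were seen.

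**Figure D4:**
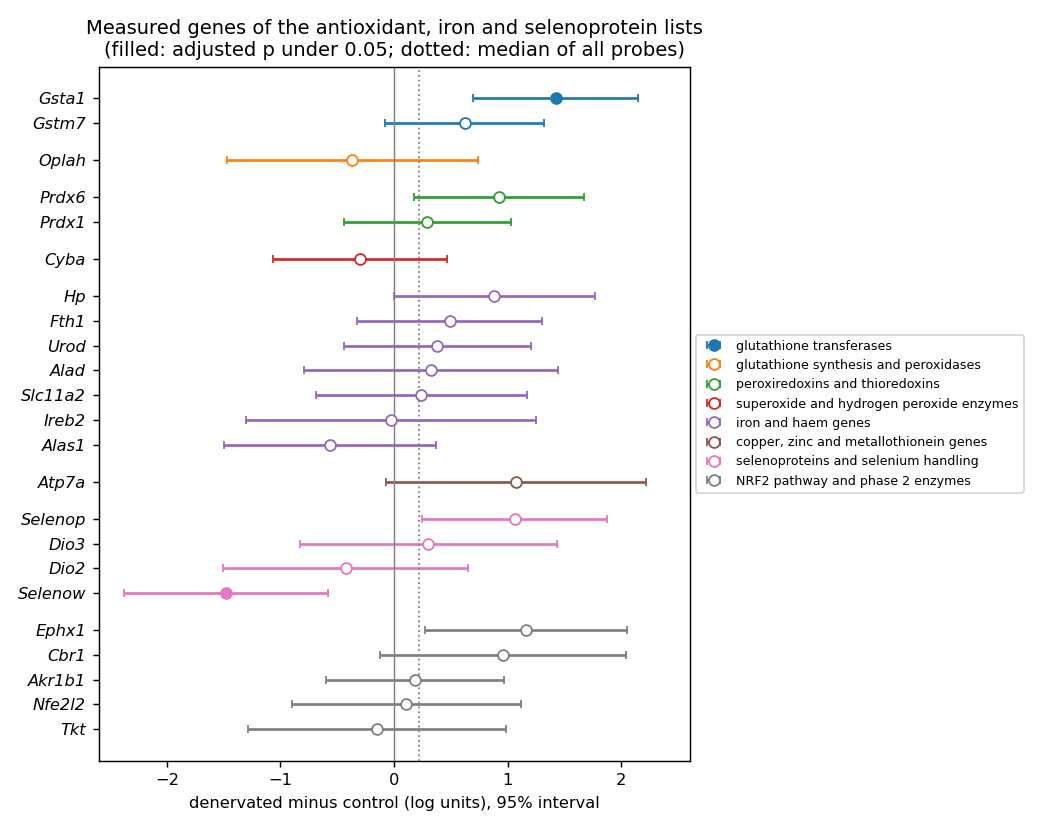
Difference between denervated and control muscle in log units with its 95% interval (horizontal axis) for 23 measured genes (rows), coloured by list; filled points have an adjusted p under 0.05 and the dotted line is the median of all probes at 0.22. Gsta1 and Selenow are the filled points.

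Some markers of other cell types also changed, where 5.44% of all probes were called higher and 0.85% lower. Of 4 fibroblast and matrix markers 3 rose, S100a4 by 2.88 (adjusted p = 5.06e-07), Bgn by 2.30 (adjusted p = 3.24e-05) and Dcn by 1.40 (adjusted p = 0.0318), and the mean of the 4 ranged from 11.18 to 12.33 over denervated arrays and from 8.04 to 10.77 over control arrays. Of 3 macrophage and leukocyte markers none passed, although all 3 differences were positive, where 63.7% of all probes were. An unadjusted p under 0.05 in limma was reached by 2 of these 3, where 17.9% of all probes reached it. The mean of these 3 ranged from 9.22 to 9.92 over denervated arrays and from 7.36 to 9.83 over control arrays. Of 3 fibre markers Mylk2, the muscle myosin light chain kinase, fell by 1.87 (adjusted p = 4.18e-04). The others did not pass: Ckm differed by 0.70 (adjusted p = 0.624 in limma) and Cacna1s by -0.03 (adjusted p = 0.976 in limma). The mean of the 3 fibre markers ranged from 10.61 to 11.44 over denervated arrays and from 9.98 to 13.32 over control arrays. Of 5 Schwann cell and nerve markers 1 rose, of 2 adipocyte markers 1 rose, and of 2 endothelial and smooth muscle markers none did. The part of these cell types in the results for Gsta1 and Selenow was not tested.

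The probes most like each gene were found by Pearson r over the 16 arrays after centring, as a description. These values share the same arrays, and each r was the highest found among all probes with 1 gene. For Gsta1 they were Cd63 (r = 0.87), Sncg (r = 0.87) and Ruvbl1 (r = 0.86). For Selenow they were Pfkfb1 (r = 0.85), Treh (r = 0.84) and Sycp2 (r = 0.81). For Prdx6 they were Scarb2 (r = 0.93), Hadha (r = 0.88) and Rps10 (r = 0.85). For Fth1 they were Cox6c (r = 0.94), Ndufa5 (r = 0.92) and Krt1 (r = 0.91). With the group means removed, r was 0.66 to 0.75 for the probes like Gsta1 and 0.75 to 0.80 for those like Selenow. It was 0.81 to 0.91 for those like Prdx6 and 0.92 to 0.95 for those like Fth1. The likeness to Fth1 was thus as high within groups, and that to Prdx6 only slightly lower. Among the 4 genes themselves the highest r was that of Prdx6 with Fth1 (0.71), and that of Gsta1 with Selenow was -0.25.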

How the data were processed

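The deposited table holds a score per probe and array on a logarithmic scale, per the values. Per the labels, the authors took phosphorimager images, processed them in Array Vision and normalised with a linear regression method; how background was treated is not given in the sources used here. Of 1185 probes, 9 reference probes on another scale were left out. A value above 0 on at least 8 arrays was required, which removed none of the 1176 others. The platform table gave 1 gene for 1106 of these, several for 2 and none for 68, and 1099 gene IDs were in RefSeq (GRCr8), which was used for current symbols and promoters. Where 10 genes had more than 1 probe, the one brightest on average stood for the gene.

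The fit used limma 3.58.1 (R 4.3.3): lmFit, then eBayes with trend, two-sided, and all adjusted p-values are Benjamini-Hochberg over all probes at 0.05. Adjusted p-values named exact come from all 12870 splits of 16 arrays, with a smallest possible p of 0.000155. Precision is limited by the number of arrays. No array was a copy of another, since any 2 shared at most 0.085% of their values.

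The 4 genes, the lists and the tests were chosen with earlier results of these data known. Named genes are the 4 members, list genes that passed, the 3 of each list with the lowest adjusted p, and the 3 probes most like each member. Alternatives were centring, quantile normalisation, filters, a common floor (6.69), reference probes, blocks, sets of rats, robust variance, array weights, permutation and leaving out each array; the interaction of group with set, the centred sets, the set of rats 5 to 8 without control rat 6 or denervated rat 7, the centred fit without denervated rat 7 and the contrast of Selenop with Selenow were added after the data were seen. Figures were drawn with matplotlib 3.10.9.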

Additional observations from a re-analysis of the deposited data

Results flagged for a closer look

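Selenow on the array of denervated rat 7 was 5.94 log units, against 9.17 on the next lowest of the 8 denervated arrays, a gap of 0.683 of the group's range, above Dixon's critical value for 8 arrays. That array's mean over all probes was 8.29. Means lay close together on all arrays but that of control rat 6, so this mean cannot show whether the array was unusual. Its median of 8.60 was the highest of all arrays. Other list genes had a low array of the same kind, Hp in denervated rat 3 at 6.75, Atp7a in denervated rat 2 at 6.21 and Tkt in denervated rat 8 at 4.60. Chance gives such a value in about 1 of 20 groups, and 46 groups were examined over 23 genes. The causes were not tested.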

How the results depend on the processing

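The base of the logarithm is unknown, values at an array's lowest value are upper bounds, and 8 arrays a group limit the precision. Over 37 alternatives Gsta1 stayed higher in all and lost its call in rats 1 to 4 alone (1.19, and 1.27 centred); it ranged from 1.23 to 1.55 without 1 array. Selenow stayed lower in all 37, from -1.68 to -0.99 without 1 array. It lost its call with a common floor (-1.39, adjusted p = 0.113), robust variance (-1.48, adjusted p = 0.0546), exact permutation (adjusted p = 0.108) and, centred, without control rat 6 (-1.73, adjusted p = 0.0564) or denervated rat 7 (-1.16, adjusted p = 0.0572), as well as in rats 5 to 8 without control rat 6 (-1.71) or denervated rat 7 (-0.59). Prdx6 was 0.77 to 1.11 without 1 array and passed in rats 5 to 8 (1.53, and 1.39 without control rat 6). Fth1 was 0.26 to 0.65 without 1 array, passed in rats 5 to 8 (1.26, 0.95 without control rat 6 and 1.38 without denervated rat 7), and was negative after quantile normalisation (-0.48) and in rats 1 to 4 (-0.28, and -0.20 centred).

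The main count of 74 changed probes (64 higher, 10 lower) was 43 to 98 without 1 array, and moved by over 1.5 times without denervated rat 1 (43) or 6 (46) or control rat 5 (49), 7 (45) or 8 (48). It was 30 in rats 1 to 4 (31 centred), 139 in rats 5 to 8 (171 without control rat 6), 131 with the set of rats as a term and 43 centred without control rat 6. Centring gave 35 higher and 15 lower calls, and quantile normalisation 35 higher and 27 lower. With rat number as a replicate block it was 113, and 141 when also centred; Selenow and Gsta1 passed in both and Selenop became called (adjusted p = 0.0393 and 0.0129). Same-numbered rats deviated from their group means with r of 0.0592 to 0.193 over probes, above 0.1 in 7 of 8 pairs. Neither the labels nor every pair supported a pairing, so the main test has no block. No r between unlike numbers is given, and equal numbers always share a set of rats. These r therefore cannot tell a pair of muscles from a set of rats. Between the groups, 3 of 8 denervated and 2 of 8 control arrays were most like the array of their own number. The 2 changed list genes became 1 in rats 1 to 4 (also centred), with a common floor, robust variance or exact permutation, and centred without control rat 6 or denervated rat 7, 7 in rats 5 to 8 (6 without control rat 6), and 1 to 3 without 1 array.

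List genes that never passed in the main test turned sign as follows. Centring gave Akr1b1 -0.023 and Nfe2l2 -0.10, the same with the block added, and quantile normalisation gave Nfe2l2 -0.023. Rats 1 to 4 gave Akr1b1 -0.61, Alad -0.57, Dio3 -0.10, Nfe2l2 -0.81, Prdx1 -0.62 and Urod -0.40, and centred -0.53, -0.49, -0.016, -0.73, -0.54 and -0.32. Rats 5 to 8 gave Alas1 0.53, Dio2 0.45 and Ireb2 0.39, centred Alas1 0.032 and Slc11a2 -0.24, without control rat 6 Alas1 0.29, and without denervated rat 7 Alas1 0.41, Dio2 0.18, Ireb2 0.11 and Slc11a2 -0.16. Centred without control rat 6, Akr1b1 was -0.047, Dio3 -0.033 and Nfe2l2 -0.018; centred without denervated rat 7, Akr1b1 was -0.12, Dio3 -0.081, Nfe2l2 -0.23 and Slc11a2 -0.090. Array weights gave Dio3 -0.066. Without 1 array Ireb2 ranged from -0.50 to 0.20, Nfe2l2 from -0.17 to 0.44 and Tkt from -0.59 to 0.26. The causes were not tested.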
